A study of Mus musculus with 2 samples.

Results

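The genes described here are the Myc and Max network: Myc, Mycn, Max, Mnt, Mxi1, Mxd3, Mxd4 and Mga. These are 8 of the 12393 genes that the array reads with single-gene probe sets. Every probe set that the platform table assigns to one of them and to no other gene was used, which gave 18 of the 20380 probe sets with a single gene, in a table of 22690. Probe sets were assigned by gene symbol only, but the member genes were chosen with earlier results of these data known. The cells were mouse iPSCs, pluripotent stem cells made by reprogramming somatic cells, cultured in 2i with serum. The 2i inhibitors block Mek and Gsk3 and keep mouse pluripotent cells naive. One group was hybridized iPSCs and the other live iPSCs, with 1 sample and 1 array each. The labels describe the same culture for both and name no strain, clone, age or reprogramming method, nor what the cells were hybridized with. The question behind the comparison is whether RNA from hybridized cells gives the same profile as RNA from live cells.

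Max is a small basic helix-loop-helix leucine zipper protein that binds DNA as a dimer, and the other network proteins bind DNA together with it at E-boxes such as CACGTG. Myc and Mycn pair with Max to raise the transcription of genes for growth and biosynthesis, and in mouse embryonic stem cells either can stand in for the other. Mnt, Mxi1, Mxd3 and Mxd4 compete for Max and bring in the Sin3 and histone deacetylase corepressor, while Mga joins Max to the Polycomb complex PRC1.6, which keeps germline genes silent in mouse pluripotent cells.

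The recognition sequence of the network is shown first, in the promoters of the members that carry it and of 4 germline genes described further below. These 4 were picked because they carry it and were 2-fold higher in hybridized cells. The windows come from RefSeq promoters (GRCm38.p6, 250 bases before to 50 after a gene's start), 5′ to 3′ on the gene's strand, with CACGTG in capitals; this motif reads the same on both strands.
Max, chr12:76962219-76962278, minus strand: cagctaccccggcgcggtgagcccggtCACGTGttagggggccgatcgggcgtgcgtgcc
Mnt, chr11:74830774-74830833, plus strand: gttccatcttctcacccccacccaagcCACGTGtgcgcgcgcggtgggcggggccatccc
Mxd4, chr5:34187897-34187956, minus strand: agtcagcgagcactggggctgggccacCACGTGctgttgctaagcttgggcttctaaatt
Ddx4, chr13:112652307-112652366, minus strand: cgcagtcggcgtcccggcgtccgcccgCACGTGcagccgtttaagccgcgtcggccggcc
Hormad1, chr3:95559593-95559689, plus strand: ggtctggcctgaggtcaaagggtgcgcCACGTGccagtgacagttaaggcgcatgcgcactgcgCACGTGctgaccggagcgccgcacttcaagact
Sycp3, chr10:88459496-88459576, plus strand: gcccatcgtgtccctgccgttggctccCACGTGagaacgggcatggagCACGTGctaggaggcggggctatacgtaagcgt
Stk31, chr6:49395457-49395516, plus strand: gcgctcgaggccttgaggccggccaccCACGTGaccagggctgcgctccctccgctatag

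CACGTG was present at 3 of the 7 member genes with a promoter in the RefSeq table, namely Max, Mnt and Mxd4, or 42.9%, and at 8.09% of all 27025 genes with a promoter of that length there. Counted by promoter, this was 3 of 9, or 33.3%, against 7.15% of all 32851. Its first base lay at -3 from the listed start of Max, at -123 in Mnt and at -219 in Mxd4. A match is a description of the letters in the window and not a measured binding site.

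With 1 array per group no test of a difference is possible and no value has a replicate error. The number of arrays limits the precision. Values are log2 GCRMA values, a background-corrected and normalized array signal, and each difference is hybridized minus live on that scale. Probe sets with a mean of at least 5 over both arrays were compared, and a difference of at least 1 in size is called 2-fold; values below that level have no order. Levels are compared between arrays only, since probe sets differ in how strongly they bind. Of the pluripotency markers that check the iPSC label, all 19 pluripotency genes found on the array, of 20 listed, reached the level, with a median difference of -0.01. Of these, 8 were above 0 and 11 below. Klf2 was 2-fold lower, at 9.69 in hybridized and 10.69 in live cells. The highest difference was 0.98, for Dppa3, so 0 were 2-fold higher. Of 23 fibroblast markers on the array 5 reached the level, their median value was 2.63 in hybridized and 3.36 in live cells, and of the defining genes Col1a2, Col3a1, Thy1, Postn, Lum and Dcn all lay under 4 on both arrays, while Col1a1 (4.46 in hybridized and 6.17 in live cells) and Col5a1 (5.43 in hybridized and 7.58 in live cells) were 2-fold lower. Col5a1 differed by -0.04 on its second probe set, also at the level. Fn1, Vim and Zeb1, the other 3 at the level, read 9.90 to 12.92 in hybridized and 9.71 to 13.07 in live cells. Summed over the fibroblast list, the level was 13.40 in hybridized and 13.62 in live cells. Of 13 primitive endoderm markers 3 reached the level, with Col4a2 at 4.70 in hybridized and 6.56 in live cells and Col4a1 at 6.06 in hybridized and 7.40 in live cells. Lama1, the third, read 8.62 in hybridized and 9.27 in live cells. The summed level was 9.15 in hybridized and 9.92 in live cells. Of 8 neuroectoderm markers on the array 2 reached the level (summed level 11.48 in hybridized and 11.80 in live cells). Tubb3 read 8.14 in hybridized and 9.67 in live cells, and Ncam1 11.29 in hybridized and 11.39 in live cells. Of 12 trophectoderm markers 5 reached the level (summed level 13.08 in hybridized and 12.61 in live cells). Krt8 read 8.40 in hybridized and 9.88 in live cells, and Tead4 6.11 in hybridized and 6.97 in live cells. In the other direction, Krt18 read 8.01 in hybridized and 7.30 in live cells, and Tfap2c 12.93 in hybridized and 12.24 in live cells. Eomes read 7.11 in hybridized and 7.19 in live cells. The defining genes Gata4, Gata6, Sox17, Sox1, Pax6, Cdx2 and Elf5 lay under 4 on both arrays. The hybridization controls, spiked into each sample before it goes on the array, differed by a median of -0.80 (from -1.22 to -0.15 over 18 probe sets). The 5′ signal of Actb minus its 3′ signal was -0.50 in hybridized and -3.02 in live cells, a gap of 2.52. For Gapdh it was -0.12 in hybridized and -1.93 in live cells. For Tfrc it was -3.23 in hybridized and -3.73 in live cells, a smaller gap of 0.50. The part of these features in any result below was not tested.

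The network did not shift as a block. Of its 18 probe sets, 9 reached the level, for 7 of the 8 genes. Mycn, Max and Mga read higher in hybridized cells, and Myc and the repressors Mnt, Mxi1 and Mxd3 read lower. In such bulk RNA, fewer cells that express a gene and less of its RNA per cell cannot be told apart. At 2-fold, 1 probe set was higher (Mycn) and 2 were lower (Myc and Mxd3), while 13.1% of all 11407 probe sets at the level were 2-fold higher and 12.8% were 2-fold lower. The median difference was -0.49 over the 9 and -0.07 over all probe sets at the level. These shares are close to the background for so few members, so nothing in the counts sets the network apart.

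**Figure D1:**
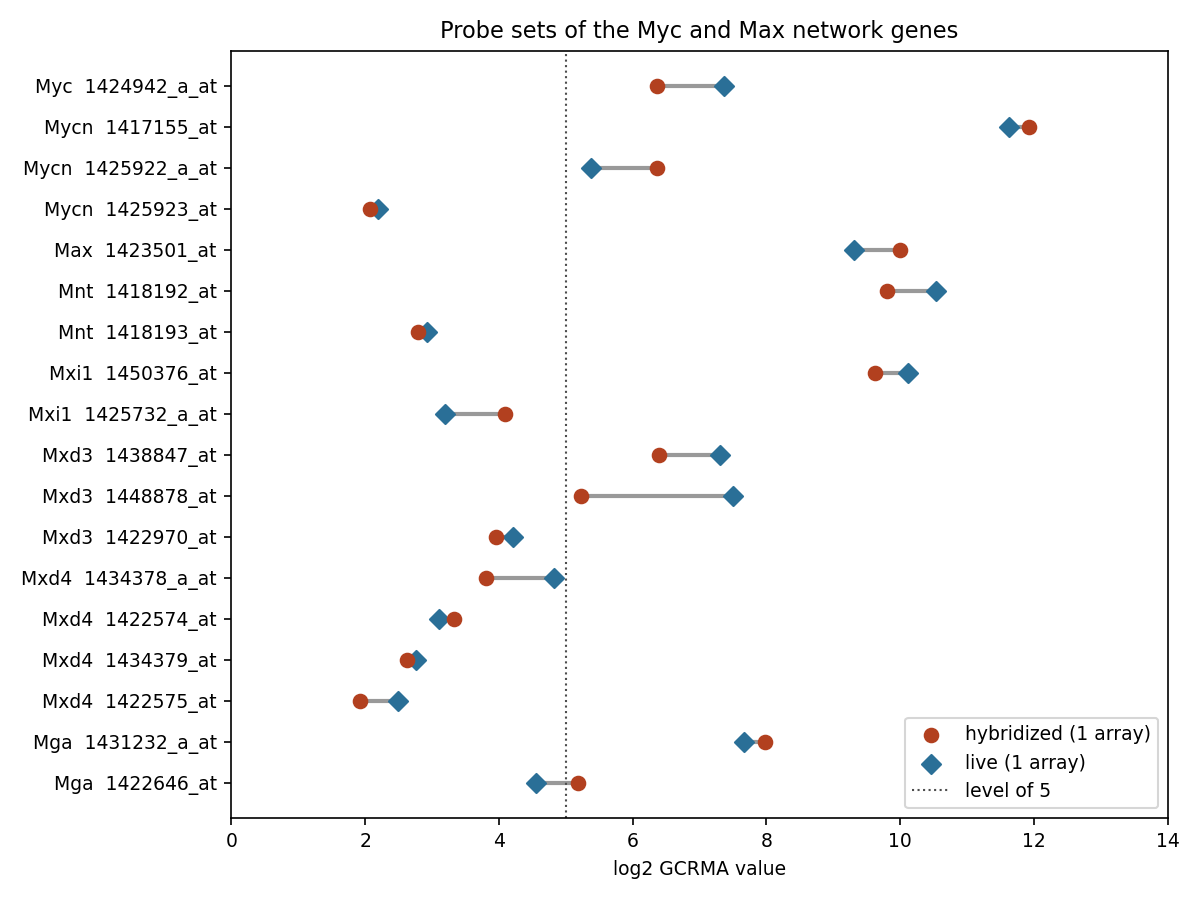
Log2 GCRMA value of each of the 18 probe sets of the 8 genes in hybridized cells (circles) and live cells (diamonds), 1 array each, with the level of 5 dotted. The longest bar is that of Mxd3 probe set 1448878_at, at 5.23 in hybridized and 7.50 in live cells, and all 4 probe sets of Mxd4 lie left of the dotted line.

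The activating partners differed in opposite directions. Myc (Entrez 17869), the cellular oncogene that drives growth and ribosome production, read 6.37 in hybridized and 7.37 in live cells on its only probe set, a difference of -1.0. Mycn (Entrez 18109), its paralog, read 11.92 in hybridized and 11.63 in live cells on its brightest probe set, a difference of 0.29. The second probe set of Mycn, 1425922_a_at, read 6.37 in hybridized and 5.37 in live cells, a difference of 1.00. Both Mycn probe sets at the level were thus higher in hybridized cells, but one was 2-fold apart and the other was not. Another Mycn probe set, 1425923_at, lay far under the level at 2.08 in hybridized and 2.20 in live cells. Myc and Mycn probe set 1425922_a_at both sit exactly on the 2-fold limit. Among probe sets with a mean from 5 to under 7, where both lie, 20.3% were 2-fold lower and 16.3% were 2-fold higher, so differences of that size were common there. At a mean of 11 or more, where the brightest Mycn probe set lies, 3.99% were 2-fold higher.

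A constant added to all values of an array leaves the gap between the differences of any 2 probe sets as it is. The difference of Mycn exceeded that of Myc by 1.29 on the brightest Mycn probe set and by 2.00 on the second. These gaps describe unequal differences of the transcripts read by these probe sets, with no error attached.

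Max (Entrez 17187), the partner that all the others share, read 10.00 in hybridized and 9.31 in live cells, a difference of 0.69 or 1.61-fold on its only probe set. It lay higher in hybridized cells while its competing repressors lay lower. The difference of Max exceeded that of Mnt by 1.42 and that of Mxi1 by 1.18. Of probe sets with a mean from 9 to under 11, where Max, Mnt and Mxi1 lie, 12.7% were 2-fold higher and 9.22% were 2-fold lower, and none of these 3 was.

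All 4 probe sets of the repressing partners at the level were lower in hybridized cells, as were 53.2% of all probe sets at the level. Mnt (Entrez 17428), the most widely expressed antagonist of Myc, read 9.81 in hybridized and 10.54 in live cells, a difference of -0.73. Its second probe set was under the level, at 2.79 in hybridized and 2.92 in live cells. Mxi1 (Entrez 17859), also called Mxd2, read 9.63 in hybridized and 10.12 in live cells, a difference of -0.49. On its other probe set, under the level, it read 4.09 in hybridized and 3.20 in live cells, which is the opposite direction. The direction for Mxi1 therefore rests on a single probe set, and the mean over both was 0.20.

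Mxd3 (Entrez 17121), a Mxd family member found in proliferating cells, showed the largest difference of the network. Probe set 1448878_at read 5.23 in hybridized and 7.50 in live cells, a difference of -2.27 or 4.82-fold. The brightest probe set, 1438847_at, read 6.40 in hybridized and 7.31 in live cells, a difference of -0.91, just inside the 2-fold limit. The remaining one, 1422970_at, under the level, read 3.96 in hybridized and 4.21 in live cells. Both probe sets at the level were lower in hybridized cells, but they disagreed in size, with a gap of 1.36. Of 2720 genes with 2 probe sets at the level, 17.2% had a gap at least that wide between their brightest pair, and the median gap was 0.60. Only 2.58% of probe sets with a mean from 5 to under 7 were 4-fold lower, as 1448878_at was; it was singled out after its value was seen.

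Mxd4 (Entrez 17122), an antagonist linked to cells leaving the cycle, was under the level on all 4 probe sets. Its brightest, 1434378_a_at, read 3.80 in hybridized and 4.83 in live cells, a difference of -1.03. Probe set 1422574_at read 3.33 in hybridized and 3.10 in live cells. The other 2 probe sets, 1434379_at and 1422575_at, read 2.63 and 1.93 in hybridized cells, against 2.76 and 2.49 in live cells. These values fall where array signal has no order, so Mxd4 was not measured well enough to compare.

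Mga (Entrez 29808), the large scaffold that carries both a T-box domain and a Max-binding domain, read 7.98 in hybridized and 7.67 in live cells, a difference of 0.31. Its second probe set was just under the level with a mean of 4.88, at 5.19 in hybridized and 4.56 in live cells. The difference of Mga thus rests on 1 probe set and lay within 2-fold. At a mean from 7 to under 9, where it lies, 16.7% of probe sets were 2-fold higher.

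**Figure D2:**
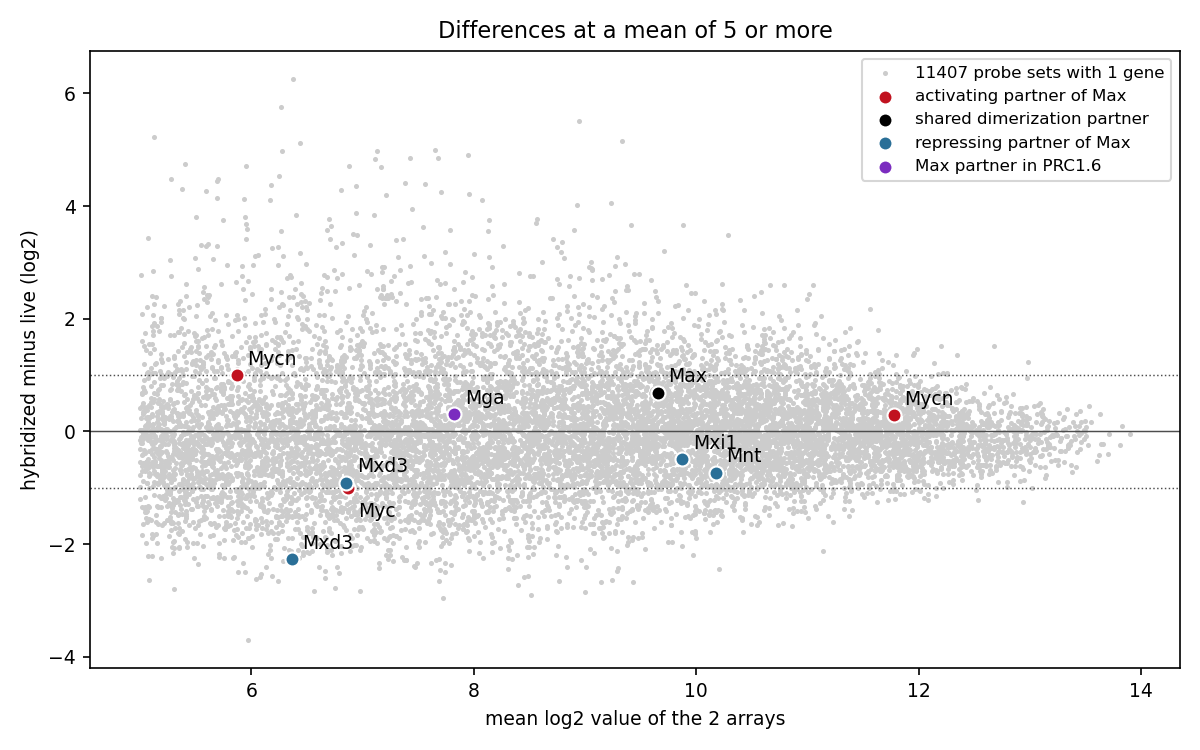
Hybridized minus live difference against the mean log2 value of the 2 arrays, for 11407 probe sets with 1 gene at a mean of 5 or more (grey) and the 9 network probe sets among them (coloured by role). Dotted lines mark 2-fold; the lowest network point is Mxd3 at -2.27, and the highest is Mycn at 1.00.

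Among the probe sets at the level, the signs of Mnt and Mxi1 depended on how the arrays were centred. Quantile normalization, a loess correction for level and centring on the median probe set left the sign of all 9 differences as deposited. Myc then lay at -0.94, -0.79 and -0.93, inside the 2-fold limit each time, and Mxd3 probe set 1448878_at at -2.23, -2.04 and -2.20. Centring on the hybridization controls added 0.80 to every difference and moved the median of all probe sets at the level to 0.73. Under it Mnt stood at 0.07 and Mxi1 at 0.31, both turned positive. Myc (-0.20) and both Mxd3 probe sets (-0.11 and -1.47) stayed below 0. Max (1.49), Mga (1.11) and both Mycn probe sets (1.09 and 1.80) then passed 2-fold upward. The same constant was added to every difference, so positions relative to that median of 0.73 could not change. Max, Mga and Mycn stood above it and Myc, Mnt, Mxi1 and Mxd3 below it, as before this centring.

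**Figure D3:**
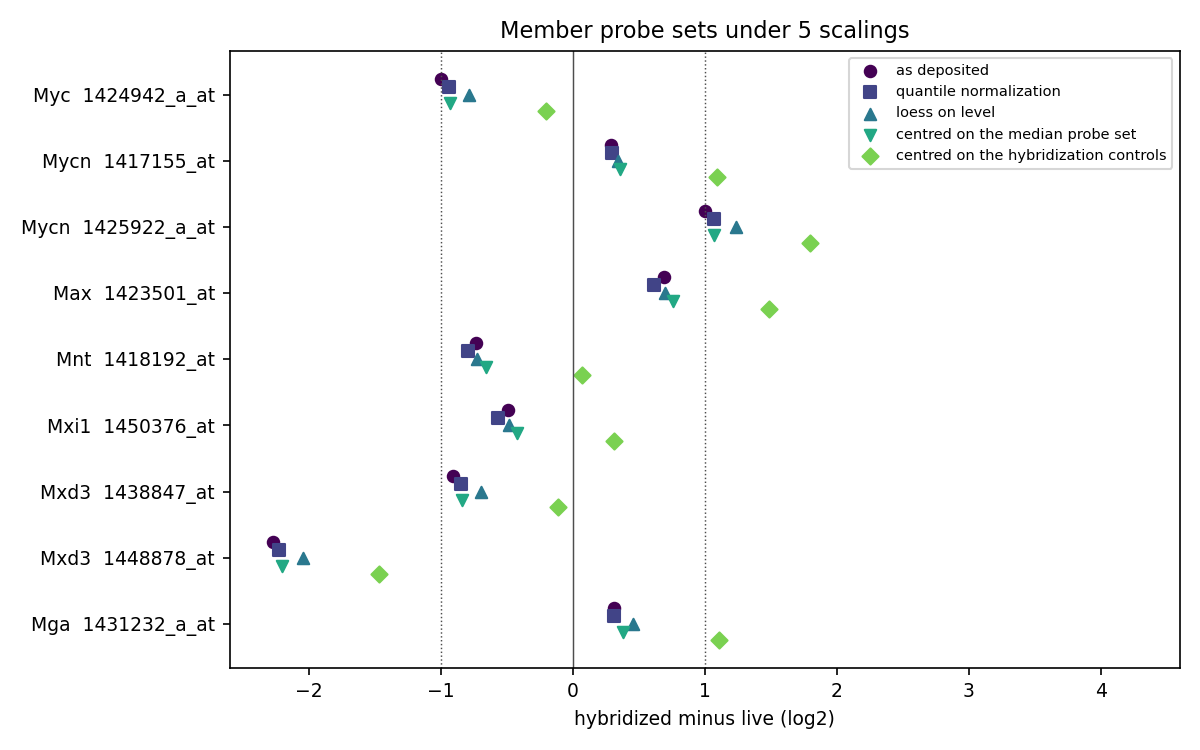
Hybridized minus live difference (log2) of the 9 network probe sets at the level under 5 scalings, with 2-fold dotted. Mxd3 probe set 1448878_at is the only one beyond -1 under all 5, from -2.27 to -1.47, and Mnt and Mxi1 cross 0 only when centred on the hybridization controls.

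The genes around the network were read from 8 lists, each gene at its brightest probe set. Of all 7262 genes compared, 8.43% were 2-fold higher and 15.4% were 2-fold lower, and the median difference was -0.17. The medians of the lists ran from -0.69 to 1.25, and 4 of the 8 lay below that of all genes. Centred on the hybridization controls, which moved the median of all genes to 0.64, all 8 medians were above 0, from 0.11 to 2.05. The values of second probe sets are given for the genes named below where they lie at the level.

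The list of 10 other family members also holds Usf1, Usf2 and Arnt, which are not Myc or Mlx family genes. Of the 10, 6 reached the level, and 1 of them was 2-fold lower and 0 were 2-fold higher. This is close to the background of 15.4% and 8.43% of all genes. All 6 were below 0 at the brightest probe set, as were 58.5% of all genes, with a median of -0.69, but the second probe sets of Mlx and Usf1 at the level were above 0. Mycl, another Myc paralog, read 6.88 in hybridized and 8.49 in live cells, a difference of -1.61, and its other probe sets were under the level. Mlx, which heads a parallel network of glucose-sensing partners and also binds Mnt and some Mxd proteins, read 8.91 in hybridized and 9.67 in live cells, but was 0.98 higher on its second probe set. Usf2, an E-box binder outside the network, differed by -0.89 and by -0.12 on its second probe set. Its paralog Usf1, added after its values were seen, differed by -0.62 and by 1.6 on its second. Mlxip, a partner of Mlx, differed by -0.58 and Bmyc by -0.16. Mxd1, the founding Mxd gene, was under the level at 2.85 in hybridized and 2.84 in live cells. Centred on the hybridization controls, the median of this list was 0.11 and averaged over probe sets it was -0.27; none was 2-fold lower under either.

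Myc recruits many cofactors to chromatin. Of 15 at the level, 3 were 2-fold lower, 0 were 2-fold higher and 14 were below 0, with a median of -0.57. Of all genes, 15.4% were 2-fold lower, 8.43% were 2-fold higher and 58.5% were below 0. Averaged over probe sets, 1 cofactor was 2-fold lower and 1 higher. Hcfc1 differed by -0.12 on its brightest probe set but by 3.36 on the next. Trrap, the scaffold of Myc-bound acetyltransferase complexes, read 8.41 in hybridized and 9.39 in live cells. Kat2a, the Gcn5 acetyltransferase, was lowest at -1.96, yet differed by 0.07 on its second probe set. Cdk9, the kinase that releases paused polymerase, read 10.29 in hybridized and 11.64 in live cells, a difference of -1.35. Zbtb17, also called Miz1, through which Myc represses genes, read 5.59 in hybridized and 6.34 in live cells. Ruvbl2 differed by -0.08, and Paf1, a polymerase-associated elongation factor, was the one member above 0, at 0.93. Centred on the hybridization controls the list's median was 0.23 with 1 gene 2-fold lower and 1 higher.

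Regulators of Myc protein turnover differed both ways. Of 13 at the level, 3 were 2-fold lower and 0 were 2-fold higher, against 15.4% and 8.43% of all genes. The median was -0.29. Fbxw7, the ubiquitin ligase subunit that marks phosphorylated Myc and Mycn for destruction, read 11.13 in hybridized and 10.24 in live cells, a difference of 0.89, but its second probe set differed by -0.76. Cip2a, which protects Myc from dephosphorylation, was 0.81 higher. Trpc4ap, a ligase adaptor, differed by -1.61 and Axin1, a scaffold for Myc degradation and for beta-catenin, by -1.54; Stub1, a ubiquitin ligase, was the other 2-fold lower gene at -1.52, with -0.93 on its second probe set. The median was 0.51 when centred on the hybridization controls, with 3 genes 2-fold higher and 0 lower.

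The corepressor that Mnt and the Mxd proteins use had 13 genes at the level, with a median of -0.32. Of these, 3 were 2-fold lower and 1 was higher, against 15.4% and 8.43% of all genes. Without suffixed probe sets (_x_at, _s_at or _a_at, whose probes can match several genes or transcripts), or centred on the median probe set, 1 was 2-fold lower. Sin3a, its scaffold, read 9.75 in hybridized and 10.79 in live cells, a difference of -1.04, against -0.16 on its second probe set. Sin3b, the related scaffold, differed by 0.13 on one probe set and by -0.13 on another of the same mean. Smarca2, a remodelling ATPase, differed by -1.45 and Sap30, a Sin3 subunit, by -1.04. Arid4b, another subunit, read 9.44 in hybridized and 8.15 in live cells and was 1.17 higher on its next probe set too. Hdac2, a catalytic subunit, was 0.75 higher. Averaged over probe sets, 0 were higher and 1 was lower; centred on the hybridization controls, the median was 0.48, with 2 genes 2-fold higher and 0 lower.

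The PRC1.6 partners of Mga and Max had a median of -0.09 over 12 genes at the level. Of these, 3 were 2-fold lower and 1 was higher, against 15.4% and 8.43% of all genes. Without suffixed probe sets the median over 10 genes was -0.51. Pcgf6, the subunit that defines this complex, read 9.93 in hybridized and 10.01 in live cells on its brightest probe set but differed by -1.57 on the next. E2f6, which brings the complex to DNA beside Mga and Max, read 7.13 in hybridized and 8.04 in live cells. Kdm5c, a histone demethylase, differed by -1.68 and Ring1 by -1.15, whereas Rnf2, the main catalytic subunit of Polycomb complex 1, read 11.84 in hybridized and 10.54 in live cells, with a second probe set at 0. When centred on the hybridization controls, 2 were 2-fold higher and 0 lower, with a median of 0.72, and averaged over probe sets 0 were higher and 1 was lower. L3mbtl2 had no probe set with a single gene.

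The next list holds germline genes that Mga, Max and PRC1.6 keep silent in mouse pluripotent cells. Most of those that reached the level lay higher in hybridized cells. Of 23 listed, 7 reached the level, 5 of them 2-fold higher and 0 2-fold lower, with a median of 1.25. Of all genes, 8.43% were 2-fold higher. At the levels where these genes lie the share of probe sets was larger. It was 16.3% at a mean from 5 to under 7 and 16.7% at a mean from 7 to under 9. The list was chosen with earlier results of these data known. With no limit on level the median over 16 was 0.38. The genes under the level differed both ways, from -0.60 (Mov10l1) to 1.26 (Sycp1). Without suffixed probe sets 3 of 5 were 2-fold higher. Stk31, a germ cell kinase at 6.04 in hybridized and 4.17 in live cells, reached the level only through the hybridized array and was 1.05 higher on its second probe set; with a level of 5 on each array, 4 of 6 were 2-fold higher and the median was 1.16. Hormad1, a meiotic axis protein, read 9.38 in hybridized and 6.96 in live cells. Dazl, a germ cell RNA-binding protein, read 8.40 in hybridized and 6.04 in live cells, and Stra8, which starts meiosis, was the one below 0 at -0.43. CACGTG was present in the promoters of 5 of these 7 genes, and the windows of the 4 that were also 2-fold higher are shown above. It was present at 13 of the 21 listed genes with a RefSeq promoter, or 61.9%, against 8.09% of all genes. The list holds targets of a complex that binds E-boxes, so this share describes the list and is not a result of these arrays. Dazl had no CACGTG in its RefSeq windows, and Stag3, which had one, differed by 0.34. GCGGGA, an E2F-type motif searched with its reverse complement TCCCGC and not overlapping CACGTG, was present at 47.6% of these 21 genes, 42.9% of the member genes and 52.4% of the Myc target genes described next, against 22.0% of all genes. Mga and Max themselves read higher in hybridized cells, both within 2-fold as deposited. Whether their RNA levels bear on the germline genes was not tested.

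Myc target genes of growth and metabolism spread in both directions around the middle. Of 44 at the level, 4 were 2-fold higher and 4 were 2-fold lower, against 8.43% and 15.4% of all genes. The median was -0.08, close to that of all genes. Without suffixed probe sets 0 were 2-fold lower, and averaged over probe sets 3 were higher and 1 was lower. Centred on the hybridization controls, 9 were 2-fold higher, 0 were lower and the median was 0.73. The highest were Ppat, the first enzyme of purine synthesis, at 12.65 in hybridized and 10.48 in live cells, and Nolc1, a nucleolar chaperone, at 12.00 in hybridized and 10.12 in live cells. Neither repeated on its second probe set, where Ppat differed by -0.11 and Nolc1 by -0.55. The lowest were Shmt2, a mitochondrial serine enzyme, at -1.48 and Cad, which starts pyrimidine synthesis, at 9.91 in hybridized and 11.30 in live cells; their next probe sets differed by -0.29 and -0.55. CACGTG was present at 26.2% of the 42 target genes with a promoter.

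Genes that Myc represses had a median of 0.48 over 8 at the level, of which 2 were 2-fold higher and 0 were lower. The shares over all genes were 8.43% higher and 15.4% lower. Gadd45b differed by 1.68 on its brightest probe set and by -0.13 on the next, and Gadd45a by 1.36; both are DNA damage and stress genes. Ndrg1, a stress-responsive gene, differed by -0.84 and by -0.57 on its second probe set, and Ccng2, a cyclin of resting cells, by -0.55. Centred on the hybridization controls, 5 were 2-fold higher, 0 were lower and the median was 1.28. With a level of 4 the median was -0.05 and with no limit -0.39, so the direction of this list depended on the level.

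**Figure D4:**
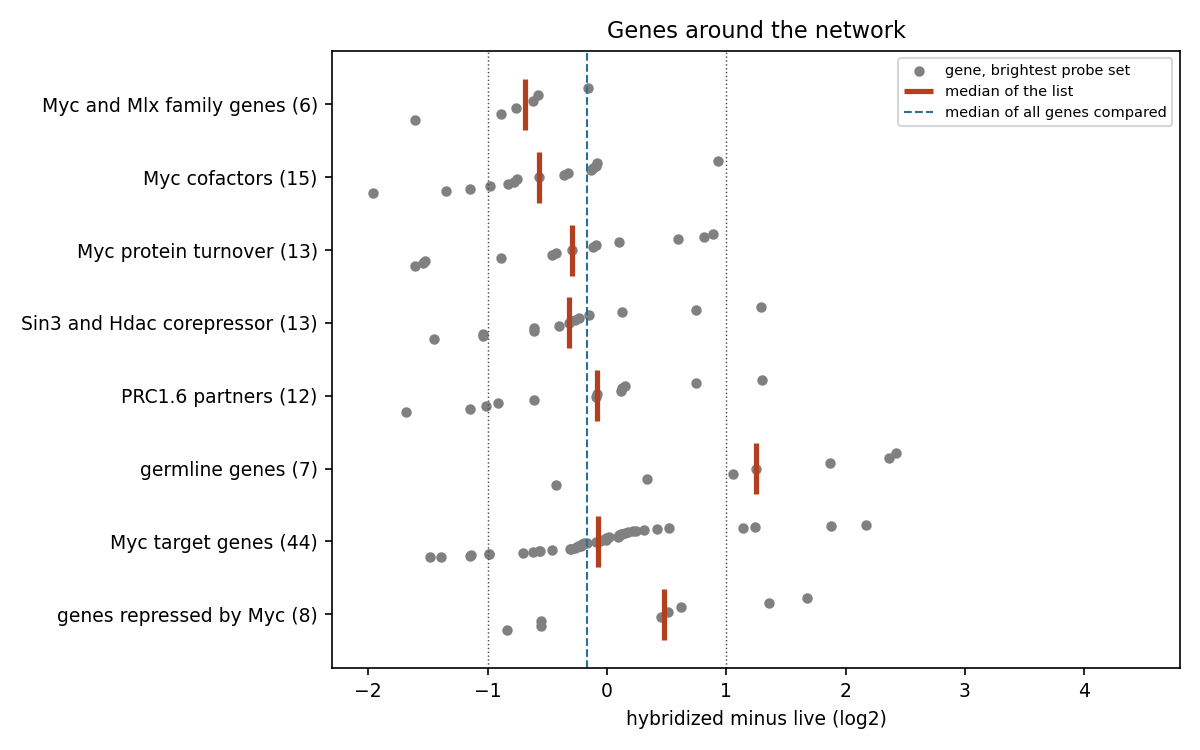
Hybridized minus live difference (log2) of each gene at a mean of 5 or more in 8 lists around the network, at its brightest probe set, with the number of genes in brackets, list medians as bars and the median of all genes compared dashed. Medians run from -0.69 for the list of other Myc and Mlx family genes, which also holds Usf1 and Usf2, to 1.25 for the germline genes.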

How the data were processed

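RNA from 1 hybridized and 1 live iPSC sample was isolated in Trizol LS and amplified as biotin-labelled cDNA (NuGEN Ovation), per the labels' protocols. The authors deposited 1 log2 value per probe set and array; GCRMA and affy are named in the submitters' processing notes, with versions and joint normalization not given in the sources used here. The log base was inferred from the method and the range of 1.02 to 14.24. Of 22690 probe sets, 64 controls, 691 with several genes and 1555 unnamed here were left out. Symbols come from the platform table; 12369 of 12393 genes, all 8 members included, matched RefSeq (GRCm38.p6) by Entrez ID. The files name no genome build.

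Differences, counts and medians were computed in Python 3.11.15 with pandas 2.3.3, numpy 2.4.6 and statsmodels 0.14.6 (loess span 0.3), and tested on simulated data. The simulation used planted 4-fold shifts and a far smaller spread than these arrays show, so it checks the calculations and not the 2-fold calls. No model or p-value was possible with 1 array per group. A gene was read at its probe set with the highest mean. All member probe sets were named, with the 2 highest and 2 lowest genes of each list and 11 direct partners of the members. Stub1, Hcfc1, Ddx4 and Sycp3 were chosen after their values were seen. The members and lists were chosen with earlier results of these data known. With 2 samples no gene was named for a similar pattern. Hdac1, Hdac2 and Wdr5 stand in 2 lists each.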

Additional observations from a re-analysis of the deposited data

How the results depend on the processing

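No paired analysis was possible because each group has 1 sample. With as few as 1 or 2 calls, the counts changed easily. As deposited, 1 probe set of the 9 was 2-fold higher, 2 were 2-fold lower, 5 were below 0, and 1 of the genes was 2-fold apart at its brightest probe set. At a level of 7 these counts were 0, 0, 2 and 0 and the median was 0.29, since Myc, Mxd3 and the second Mycn probe set were no longer compared. Without suffixed probe sets (_x_at, _s_at and _a_at) there were 0 higher, 1 lower and 0 genes apart, since the probe set of Myc and the second of Mycn carry a suffix. Quantile normalization, loess and median centring each left 1 probe set lower and 0 genes apart, because Myc moved inside the limit. Centred on the hybridization controls, 4 were higher, 1 was lower, 3 were below 0, 3 genes were apart and the median was 0.31. At 1.5-fold, 2 were higher, 4 were lower and 4 genes were apart. With no limit on level 11 of 18 were below 0, and at no limit, at a level of 4 and with the mean over probe sets 2 genes were apart. A level of 5 on each array changed none of these values. The number of lists with a median below that of all genes ran from 4 to 6. A value was taken as moved when it changed by more than 0.73, the SD of the gap between probe sets of a gene over the square root of 2, and a count when it changed by more than 1.5 times.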
